A study of Mus musculus with 7 samples.

Results

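The comparison of day 28 with day 5 spans the whole course of the macrophage response that was sequenced after sciatic nerve repair. It rests on 5 of the 7 libraries of the time course, namely all 3 libraries from day 5 and both from day 28, chosen by their time point labels. The 2 day 14 libraries entered only the gene filter, the normalization, the shared estimate of the spread and 1 closing description. All mice were wild-type BALB/cJ, an inbred strain. In each the left sciatic nerve was cut and at once repaired by suturing both stumps into an empty conduit. Macrophages were sorted by flow cytometry from the regenerative bridge, the tissue that grows inside the conduit, as Lin-F4/80+CD14+CD11b+CD16/32+ cells, where Lin- stands for the absence of lineage markers that included Ly6G, Siglec F, CD3e, Ter119 and Thy1.2. An antibody to the endothelial marker CD31 is also listed among those of the study's flow cytometry. The libraries of each day are described by the submitters as independent biological replicates. Whether a library holds cells of 1 mouse or of several, and the age and sex of these mice, were not given in the sources used here.

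After a nerve is cut, blood monocytes enter the gap between the stumps, become macrophages, clear myelin and cell debris, and stay in close contact with the Schwann cells and vessels that bridge the gap. Macrophages answer interferons through STAT and IRF factors and bacterial products or damage signals through NF-kB, and they can present antigen on MHC class II. Macrophages loaded with lipid in injured or diseased tissue often share a program linked to TREM2, a surface receptor for lipids.

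Values are given as FPKM, fragments per length of transcript and depth of library, for day 5 replicates 1, 2 and 3 and then day 28 replicates 1 and 2. The test was edgeR's quasi-likelihood test on the estimated fragment counts, with p-values adjusted by Benjamini-Hochberg over all 12858 genes tested, and a gene was called where the adjusted p was under 0.05. A positive log2 fold change means higher at day 28, and SE is its standard error.

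The 5 libraries held between 18101976 and 35247116 fragments assigned to genes, and day 28 replicate 1 was the deepest. Between 13209 and 14047 genes stood above a floor of 3 fragments, and 9.74% to 11.5% of the fragments came from the top 10 genes of a library. Macrophage genes were abundant in all 5 libraries. Csf1r, the receptor for the macrophage growth factor M-CSF, was at 434, 411 and 406 FPKM at day 5 and 423 and 470.3 FPKM at day 28, and Lyz2, a lysozyme, was at 11830, 13118 and 10675 FPKM at day 5 and 14985 and 13862 FPKM at day 28. Neither was called different (log2 fold change 0.11, SE 0.12, adjusted p = 0.552 for Csf1r and log2 fold change 0.29, SE 0.17, adjusted p = 0.275 for Lyz2). Of the 12 macrophage markers, 3 were called lower, Emr1, Cd14 and Aif1, and none was called higher. The log2 fold change was negative in 9 of the 12 and positive in 3, with a median of -0.33. Their summed level was 16731 to 19219 FPKM at day 5 and 18418 to 19123 FPKM at day 28. Most of that sum came from Lyz2, so it says little about the other markers. Without day 28 replicate 1, Emr1, Cd14 and Aif1 were not called.

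Of the 12858 genes tested, 1960 differed between the days, which is 15.2%. They were split almost evenly, with 995 higher at day 28 (7.74% of the genes tested) and 965 lower (7.51%). The median log2 fold change was 1.03 in the genes called higher and -0.76 in those called lower, against 0.03 in all genes tested. Large changes were more often rises: 191 of the called genes were at least 4-fold higher and 78 at least 4-fold lower, and 88 were at least 8-fold higher and 27 at least 8-fold lower. When a ratio of at least 2 between mean FPKM values and a mean of at least 5 FPKM at either day were also required, the order turned, with 194 genes higher (1.51%) and 258 lower (2.01%). In all 1960 called genes the FPKM values of the 2 days did not overlap, which also held for 51.5% of all genes tested. The shares of 7.74% called higher and 7.51% called lower are the background for the counts called in each list of genes below. Since these are bulk samples of sorted cells, fewer cells of a type and less RNA per cell cannot be told apart. Leaving out 1 library at a time left 452 calls without day 28 replicate 1, 1012 without day 28 replicate 2, and 820, 916 and 967 without day 5 replicates 1, 2 and 3. Where 5 such counts are given for a list of genes below, they follow this order, and without a day 28 library the lone one left was assumed to vary like the libraries of the other days.

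**Figure D1:**
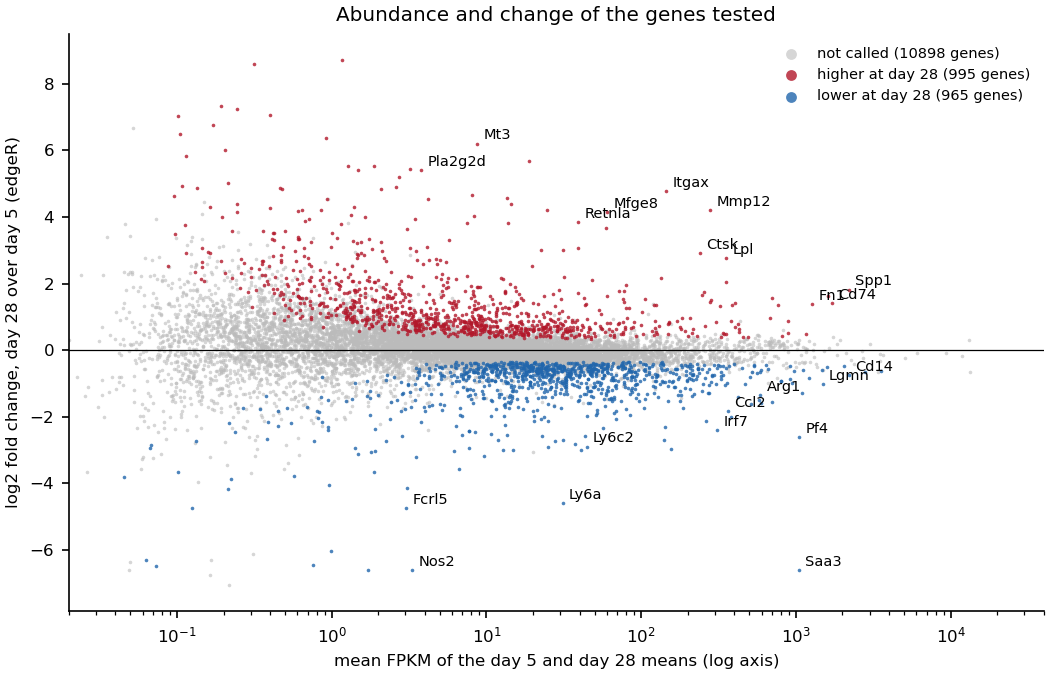
Each point is a gene tested, with the mean of its day 5 and day 28 mean FPKM on a log axis and the edgeR log2 fold change of day 28 over day 5 on the vertical axis. The 995 genes called higher are red and the 965 called lower are blue, with the largest rises mostly at low abundance and most of the abundant called genes below the line at 0.

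The direction of the calls depended on how abundant a gene was. Of the 2430 genes with a mean under 1 FPKM, 6.38% were called higher and 1.48% lower, and of the 2863 genes between 1 and 5 FPKM, 11.1% were called higher and 2.24% lower. Between 5 and 20 FPKM (3898 genes) the shares were 7.64% and 7.54%. Among the 2828 genes between 20 and 100 FPKM the order was turned, with 5.69% higher and 14.4% lower, and among the 839 genes of at least 100 FPKM 7.51% were higher and 19.5% lower. Day 28 replicate 1 held 35247116 fragments against 18101976 in day 28 replicate 2. Without day 28 replicate 1, 1.15% of the genes under 1 FPKM were called higher and 0.124% lower, and 3.10% of those of at least 100 FPKM higher and 3.69% lower. Without day 28 replicate 2 these shares were 2.47% and 1.73% under 1 FPKM and 5.6% and 9.06% at 100 FPKM and over. The part of depth in this pattern was not tested beyond these values. The counts called in the lists of genes below were not matched to the abundance of their members.

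**Figure D2:**
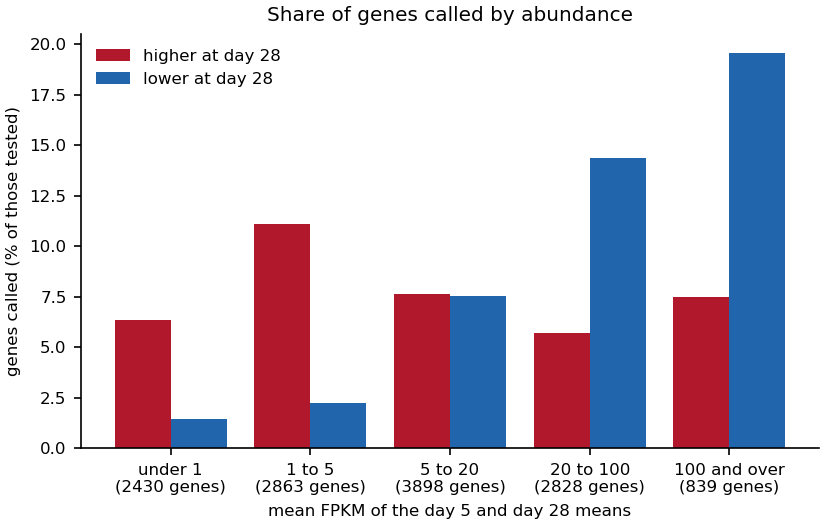
Bars give the percentage of tested genes called higher (red) or lower (blue) at day 28 in 5 bins of mean FPKM, with the number of genes under each bin. The red bars stand above the blue ones under 5 FPKM, and the blue bars above the red ones from 20 FPKM upward.

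The genes with the largest rises among those that met the stricter criteria encode proteins of varied function, from adhesion and lipid cleavage to cell fusion. Itgax (chr7:128129547-128150657), which encodes the integrin CD11c, was at 6.41, 18.3 and 6.55 FPKM at day 5 and 294 and 267 FPKM at day 28. Itgax had a log2 fold change of 4.77 with an SE of 0.66 and an adjusted p of 0.00291. Both day 28 libraries lay far above each day 5 library. Pla2g2d (chr4:138775735-138782046), a secreted phospholipase A2, was at 0.119, 0.188 and 0.221 FPKM at day 5 and 7.55 and 7.23 FPKM at day 28. For Pla2g2d, the log2 fold change was 5.40 with an SE of 0.37 and an adjusted p of 0.000541. Dcstamp (chr15:39745930-39760938), a membrane protein needed for the fusion of osteoclasts and giant cells, rose from 0.366, 1.14 and 0.382 FPKM to 15.7 and 15.5 FPKM, and Penk (chr4:4133531-4138819), the precursor of the enkephalin opioid peptides, from 0.813, 0.963 and 1.54 FPKM to 27.5 and 24.3 FPKM (log2 fold changes 4.67 ± 0.37 and 4.56 ± 0.44). Wfs1 (chr5:36966104-36989205), a membrane protein of the endoplasmic reticulum, was at 1.55, 0.982 and 1.38 FPKM at day 5 and 23.9 and 31 FPKM at day 28 (log2 fold change 4.40, SE 0.32, adjusted p = 0.000541), with both day 28 values far above the 3 tightly grouped day 5 values. Ephx1, the microsomal epoxide hydrolase that detoxifies reactive epoxides, rose by 4.20 ± 0.53 on the log2 scale, and Efr3b and Mamdc2 by 4.90 ± 0.52 and 4.55 ± 0.43. Klrb1a, a lectin-like receptor known from natural killer cells, was listed at 0 in day 5 replicates 2 and 3, at 0.421 FPKM in replicate 1 and at 5.95 and 4.6 FPKM at day 28 (adjusted p = 0.00827).

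The largest falls were led by acute phase and inflammatory products. The day 5 libraries differed widely among themselves in the acute phase protein gene Saa3 (chr7:46711998-46715700), which was at 3262, 640.1 and 2319.6 FPKM at day 5 and 21.2 and 20.8 FPKM at day 28. Saa3 had a log2 fold change of -6.61 with an SE of 0.73 and an adjusted p of 0.00122. Even the lowest day 5 library stood far above both day 28 libraries. Ly6a (chr15:74994877-74998031), the surface antigen Sca-1, which is inducible by interferon, was at 77.8, 46.8 and 55.1 FPKM at day 5 and 3.25 and 1.41 FPKM at day 28. For Ly6a, the log2 fold change was -4.60 with an SE of 0.49 and an adjusted p of 0.00101. Lipg, a lipase of the cell surface, fell from 6.83, 5.55 and 5.02 FPKM to 0.18 and 0.521 FPKM, and Cd300e, an activating receptor of monocytes, from 19.2, 14.7 and 18.2 FPKM to 2.57 and 1.04 FPKM (log2 fold changes -4.15 ± 0.60 and -3.18 ± 0.35). Mmp27, a matrix metalloproteinase, fell by 3.57 on the log2 scale (SE 0.45). Cd5l, a protein that macrophages secrete to limit their own death, was at 16.6, 31.8 and 19.9 FPKM at day 5 and 3.31 and 2.18 FPKM at day 28. Cd5l had a log2 fold change of -3.01 with an SE of 0.42 and an adjusted p of 0.00308. Csf3, the cytokine G-CSF that drives neutrophil formation, was at 86.1, 86 and 44.7 FPKM at day 5 and 5.74 and 12.5 FPKM at day 28 (log2 fold change -3.01, SE 0.62, adjusted p = 0.0145), and all 5 values lay in 2 separate ranges.

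**Figure D3:**
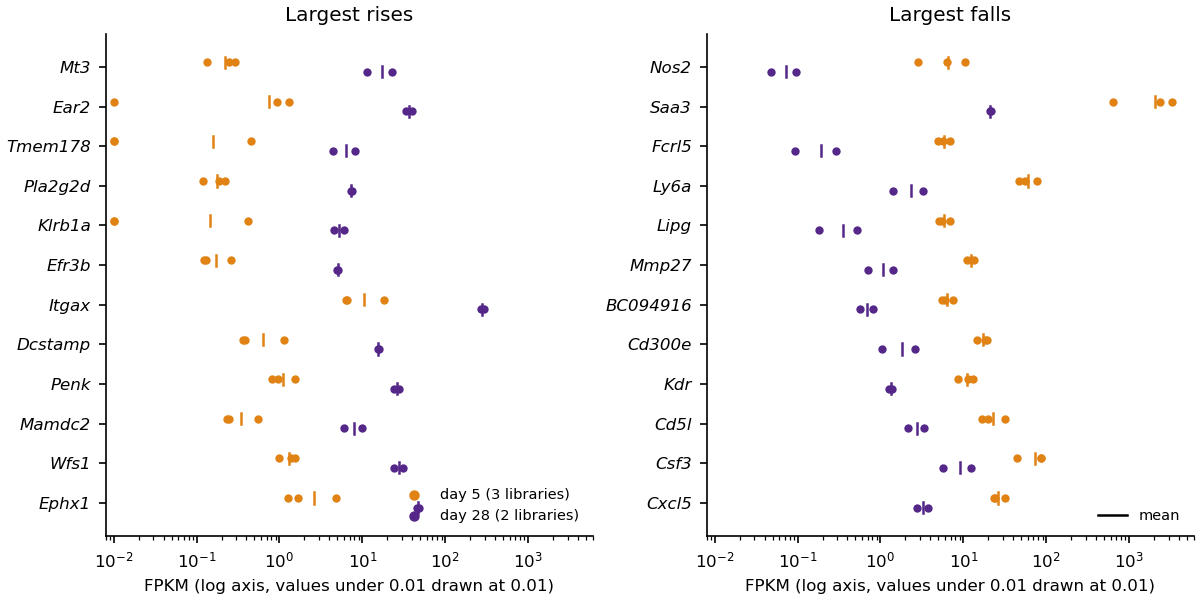
The 12 largest rises (left) and 12 largest falls (right) among genes meeting the stricter criteria, with the FPKM of each library on a log axis, orange for the 3 day 5 libraries and purple for the 2 day 28 libraries, and a bar at each mean. No gene has overlapping days, and the 3 day 5 values of Saa3 spread from 640.08 to 3262 FPKM while both day 28 values sit near 21.

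Among called genes, those with the largest gain in FPKM included secreted, antioxidant and antigen presentation products. Spp1 (chr5:104435118-104441050), which encodes osteopontin, a secreted matrix protein, was at 779.8, 1225 and 933 FPKM at day 5 and 3733 and 3095 FPKM at day 28. For Spp1, the log2 fold change was 1.82 with an SE of 0.26 and an adjusted p of 0.00345. Fn1 (chr1:71585520-71653200), fibronectin, was at 555, 867 and 713 FPKM at day 5 and 1849 and 1825 FPKM at day 28 (log2 fold change 1.38, SE 0.31, adjusted p = 0.0185), and the 2 day 28 libraries agreed closely. Lyz1, a lysozyme, rose from 803, 880.4 and 712 FPKM to 3018 and 1858 FPKM, and Prdx1, a peroxidase of the antioxidant defence, from 344, 384 and 346 FPKM to 1401 and 707 FPKM. The day 28 libraries stood far apart for Prdx1. Among called genes the largest amounts lost were in Pf4, Saa3, Actb, B2m, Cd14 and Lgmn. Lgmn, the lysosomal protease legumain, fell from 2109.8, 1873 and 2033 FPKM to 947 and 1019 FPKM, and Actb, the cytoskeletal actin often used as a reference gene, from 4119, 4348 and 4438 FPKM to 2150.3 and 3354 FPKM (adjusted p = 0.045).

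Interferon-stimulated genes fell as a group. Of 34 genes known to be induced by type I interferon, all of which were tested, 29 were called lower at day 28 and none higher, and the log2 fold change was negative in each of the 34. Their median was -1.40, and their summed level was 1912 to 2457 FPKM at day 5 and 734 and 785 FPKM at day 28. With 1 library left out the counts called lower were 11, 7, 21, 22 and 26, so the number rests on both day 28 libraries, while all 34 kept a negative sign in each of these fits. The DNA site for interferon factors, the interferon-stimulated response element, is read in promoters. Below are the promoters of 4 members called lower, picked only among members whose window holds the marked letters. A match in each of the 4 was thus fixed by the choice. The windows run from 250 bases before to 50 bases after the transcript start, from RefSeq on GRCm38.p6, 5′ to 3′ on the strand of the gene, and capitals mark matches to the core letters GAAANNGAA on either strand, where overlapping matches run together. Oas3 (chr5:120777610-120777909, minus strand), Isg15 (chr4:156200769-156201068, minus strand), Ifit3 (chr19:34583279-34583578, plus strand) and Ifi44 (chr3:151749861-151750160, minus strand) hold 2, 3, 3 and 1 matches.
Oas3: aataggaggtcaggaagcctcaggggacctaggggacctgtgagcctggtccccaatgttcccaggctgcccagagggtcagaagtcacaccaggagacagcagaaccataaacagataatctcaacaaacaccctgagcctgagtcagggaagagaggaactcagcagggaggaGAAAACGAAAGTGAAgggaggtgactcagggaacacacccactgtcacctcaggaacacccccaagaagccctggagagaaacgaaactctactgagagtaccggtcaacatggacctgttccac
Isg15: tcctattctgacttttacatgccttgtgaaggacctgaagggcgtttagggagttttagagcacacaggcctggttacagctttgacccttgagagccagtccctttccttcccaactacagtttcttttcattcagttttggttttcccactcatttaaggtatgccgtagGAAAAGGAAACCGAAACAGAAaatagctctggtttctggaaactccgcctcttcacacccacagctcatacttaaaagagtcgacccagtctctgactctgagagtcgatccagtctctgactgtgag
Ifit3: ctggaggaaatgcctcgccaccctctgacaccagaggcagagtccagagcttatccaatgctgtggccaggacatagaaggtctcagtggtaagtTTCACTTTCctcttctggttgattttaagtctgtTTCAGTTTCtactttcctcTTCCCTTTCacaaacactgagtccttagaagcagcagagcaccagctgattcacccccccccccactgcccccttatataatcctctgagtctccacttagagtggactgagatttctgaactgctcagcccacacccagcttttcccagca
Ifi44: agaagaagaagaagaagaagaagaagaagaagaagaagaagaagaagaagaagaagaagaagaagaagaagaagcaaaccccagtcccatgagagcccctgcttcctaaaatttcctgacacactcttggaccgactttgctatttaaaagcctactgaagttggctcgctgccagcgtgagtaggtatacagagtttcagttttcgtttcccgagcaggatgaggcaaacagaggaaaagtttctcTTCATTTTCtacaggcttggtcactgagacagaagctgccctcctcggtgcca

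These letters occurred in 53.3% of the 30 promoter windows of the list (16 windows), in 7.34% of the 12965 windows of all genes tested, in 12.6% of the windows of genes called lower and in 6.25% of those of genes called higher. In the windows of the genes that also met the stricter criteria the shares were 23.4% for lower and 9.14% for higher. Other letters were scanned too, and not all are reported. By the stricter criteria AP-1 letters (TGANTCA) were in 13.5% for lower and 11.7% for higher, against 5.55% of all windows. TATA box letters (TATAAA) were in 15.5% and 9.14%, against 7.47%. NF-kB letters (GGGNNTTCC) were in 7.94% and 5.58%, against 7.31%. A match is a description of the letters and not a proof of binding. Among members of the interferon list called lower, the windows of Irf7, Ifit2, Isg20, Phf11d, Xaf1, Oasl2, Herc6, Cmpk2 and Irf9 held no match to GAAANNGAA.

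The members called lower included effectors and regulators of the interferon response. Oas3 (chr5:120753098-120777661), an oligoadenylate synthetase that activates the antiviral RNase L, was at 54.9, 53.4 and 36.6 FPKM at day 5 and 7.78 and 6.57 FPKM at day 28. Oas3 had a log2 fold change of -2.74 with an SE of 0.38 and an adjusted p of 0.00302. Irf7 (chr7:141262706-141266481), the factor that amplifies type I interferon production, was at 609.5, 522 and 433 FPKM at day 5 and 105 and 91.5 FPKM at day 28. For Irf7, the log2 fold change was -2.40 with an SE of 0.32 and an adjusted p of 0.00267. Isg15, a ubiquitin-like modifier, was at 148, 146 and 109.7 FPKM at day 5 and 34.1 and 34.3 FPKM at day 28. Isg15 had a log2 fold change of -1.96 with an SE of 0.39 and an adjusted p of 0.0115. Usp18, the protease that removes it from proteins, was at 34.7, 34.8 and 29.4 FPKM at day 5 and 9.79 and 8.73 FPKM at day 28. For Usp18, the log2 fold change was -1.81 with an SE of 0.26 and an adjusted p of 0.00336. In each of these genes the day 28 values were close to each other and far below the lowest day 5 value. The cytosolic RNA sensors Ddx58, Ifih1 and Dhx58 all fell, by 1.24, 1.05 and 1.63 on the log2 scale, as did Zbp1, a sensor of unusual nucleic acids (-1.89), and Bst2, the tetherin that holds virus particles at the cell surface (-1.38). Irf9, which binds DNA in the complex that carries the interferon signal, was called lower (log2 fold change -0.61 ± 0.13), and its partner Stat2 was not called. Stat2 had a log2 fold change of -0.66 with an SE of 0.22 and an adjusted p of 0.0702. The other members that did not pass the test were Rsad2 (adjusted p = 0.0592), Mx2 (0.0557), Mx1 (0.149) and Oasl1 (0.547), and in Oasl1 alone the days overlapped. Ifnb1, the gene of interferon beta itself, was at 0.794, 0.512 and 1.36 FPKM at day 5 and 1.55 and 5.11 FPKM at day 28 and did not pass the test. For Ifnb1, the log2 fold change was 1.88 with an SE of 1.07 and an adjusted p of 0.263.

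**Figure D4:**
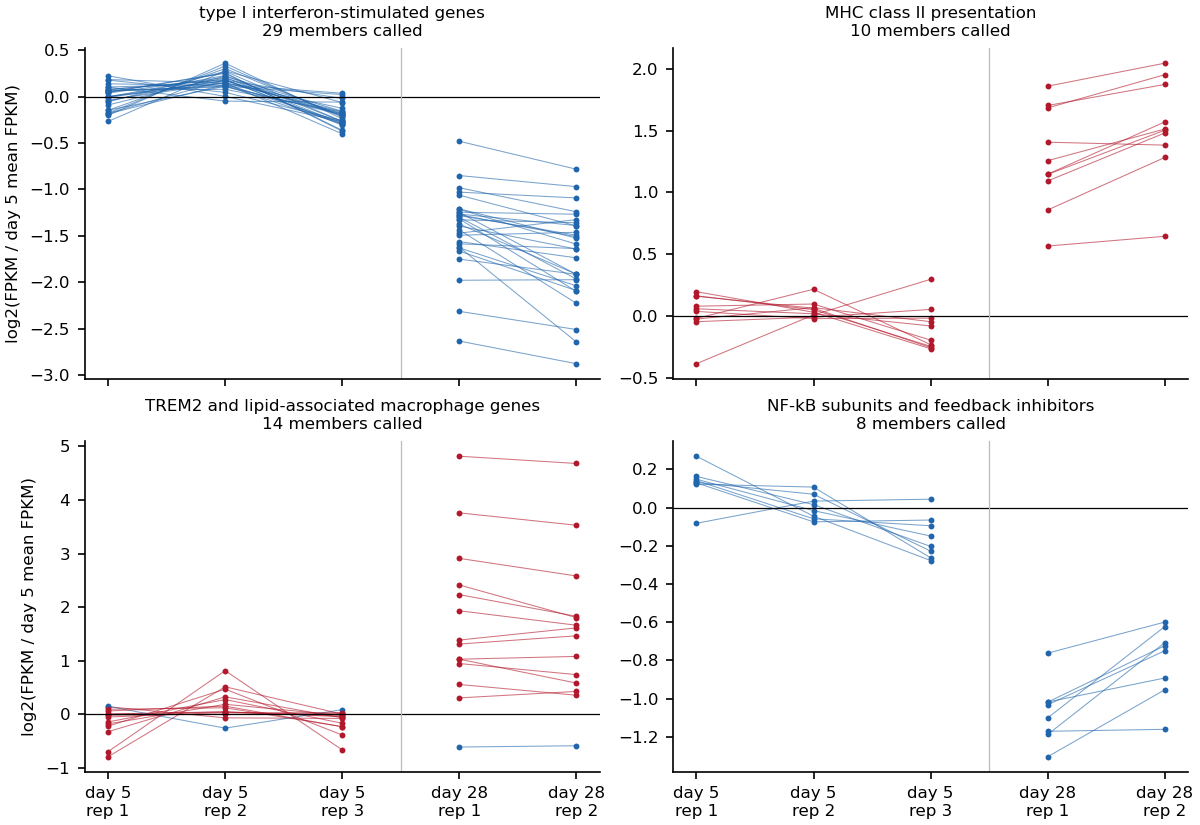
Each line is a called member of 1 of 4 lists, plotted as log2 of its FPKM over its day 5 mean in the 3 day 5 and 2 day 28 libraries, red where called higher and blue where called lower. The 29 interferon-stimulated genes and 8 NF-kB genes lie below 0 in both day 28 libraries, and the 10 MHC class II genes and 13 of the 14 genes of the TREM2 list above 0.

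The genes tied to interferon gamma were less uniform. Of 31 tested, 13 were called lower and 2 higher, with a median log2 fold change of -0.80, and without day 28 replicates 1 and 2 the counts called lower were 6 and 5. Several of these genes are also induced by type I interferon. The immunity-related GTPases, which attack the vacuoles of intracellular microbes, were mostly called lower: Igtp fell from 24, 20.4 and 16.3 FPKM to 6.94 and 5.27 FPKM, Irgm1 from 41.6, 46.2 and 32.5 FPKM to 18 and 13.5 FPKM, Irgm2 from 8.37, 9.56 and 6.54 FPKM to 3.17 and 1.94 FPKM and Ifi47 from 24.4, 31.3 and 25.3 FPKM to 14.1 and 10.5 FPKM. Iigp1, of the same family, was at 2.94, 3.35 and 2.49 FPKM at day 5 and 5.08 and 1.55 FPKM at day 28 and was not called (adjusted p = 0.734). Irg1, the enzyme that makes itaconate, was at 298, 247 and 206 FPKM at day 5 and 105 and 90.1 FPKM at day 28. Irg1 had a log2 fold change of -1.34 with an SE of 0.22 and an adjusted p of 0.00591. Upp1, uridine phosphorylase, showed a larger fall and was at 14, 16.6 and 8.61 FPKM at day 5 and 2.01 and 2.86 FPKM at day 28. For Upp1, the log2 fold change was -2.43 with an SE of 0.34 and an adjusted p of 0.00296. Of the guanylate-binding proteins, Gbp2, Gbp6 and Gbp7 were called lower, and Gbp3 and Gbp5 were not (adjusted p = 0.0657 and 0.232). The factors Irf1 and Irf8 did not pass the test either (-0.46 and -0.41, adjusted p = 0.222 and 0.246). The 2 members called higher were Ciita, described with MHC class II, and the chemokine gene Cxcl9, which stayed under 2 FPKM in every library.

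MHC class I and class II moved in opposite directions. The class I list, with heavy chains, peptide transport and peptide loading genes, had 8 of 18 members called lower and none higher (median -0.64), but with 1 library left out the counts were 0, 1, 1, 1 and 3. B2m, the light chain shared by class I molecules, was at 3698, 3416 and 3129.8 FPKM at day 5 and 2388 and 1901 FPKM at day 28. B2m had a log2 fold change of -0.66 with an SE of 0.18 and an adjusted p of 0.0398. Nlrc5, the transactivator of class I genes, was at 10.1, 10.3 and 8.53 FPKM at day 5 and 4.3 and 4.54 FPKM at day 28 (log2 fold change -1.11, SE 0.22, adjusted p = 0.0129), with narrow values within each day. H2-K1 and H2-D1, classical heavy chains, fell by 0.76 and 0.59 on the log2 scale, and Tap1, a subunit of the peptide transporter, by 0.85. The chaperones Calr, Canx and Pdia3 did not pass the test (adjusted p = 0.64, 0.579 and 0.282).

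The class II list had 10 of its 12 tested members called higher and none lower, with a median log2 fold change of 1.37, and 8 or 9 were called with any of the 5 libraries left out. Ciita (chr16:10480059-10528418), the transactivator that class II genes depend on, was at 2.11, 2.49 and 1.82 FPKM at day 5 and 7.77 and 8.84 FPKM at day 28. For Ciita, the log2 fold change was 1.96 with an SE of 0.15 and an adjusted p of 0.000541. H2-DMb1 (chr17:34153072-34160230), a subunit of the DM protein that loads peptides onto class II, was at 13, 13.9 and 12.8 FPKM at day 5 and 43.1 and 48.5 FPKM at day 28. H2-DMb1 had a log2 fold change of 1.8 with an SE of 0.13 and an adjusted p of 0.000541. In both genes the spread within each day was small beside the distance between the days. The surface chains H2-Aa, H2-Ab1 and H2-Eb1 rose by 1.41 ± 0.22, 1.35 ± 0.22 and 1.31 ± 0.23 on the log2 scale, close to their partner Cd74, the invariant chain, at 1002, 1014 and 828 FPKM at day 5 and 2268 and 2708 FPKM at day 28. For Cd74, the log2 fold change was 1.41 with an SE of 0.20 and an adjusted p of 0.00345. H2-DMa, H2-DMb2, H2-Ob and Ifi30, a reductase that unfolds antigens, were the other members called higher. The protease Ctss, which trims the invariant chain, was at 3806, 3573 and 3490 FPKM at day 5 and 3757 and 2896 FPKM at day 28 and was not called (log2 fold change -0.11, SE 0.14, adjusted p = 0.645), nor was Rfx5, a factor of class II promoters. Rfx5 had a log2 fold change of 0.43 with an SE of 0.24 and an adjusted p of 0.246. The reads were mapped to the C57BL/6J reference, which carries another H2 haplotype than BALB/c, so levels between H2 genes are uncertain.

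Class II promoters carry a CCAAT box. The 2 given below are of genes called higher and were picked only among windows that hold these letters. A match in both was thus fixed by the choice. H2-DMb1 (chr17:34152941-34153240, plus strand) and H2-Ob (chr17:34238655-34238954, plus strand) are shown in the same window and source as above, with the letters CCAAT in capitals on either strand.
H2-DMb1: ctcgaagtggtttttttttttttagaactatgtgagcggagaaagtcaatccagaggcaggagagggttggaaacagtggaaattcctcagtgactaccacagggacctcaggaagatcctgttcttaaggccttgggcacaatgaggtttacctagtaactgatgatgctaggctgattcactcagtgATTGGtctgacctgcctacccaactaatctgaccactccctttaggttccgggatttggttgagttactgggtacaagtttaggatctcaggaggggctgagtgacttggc
H2-Ob: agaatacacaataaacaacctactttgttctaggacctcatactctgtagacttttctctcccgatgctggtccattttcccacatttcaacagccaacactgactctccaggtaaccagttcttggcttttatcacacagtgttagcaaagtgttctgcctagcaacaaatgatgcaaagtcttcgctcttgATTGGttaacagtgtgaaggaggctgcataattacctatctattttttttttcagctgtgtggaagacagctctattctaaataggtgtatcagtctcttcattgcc

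These letters were in 7 of the 10 windows of the class II list, and in 37.5% of all windows. Short letters such as these are common, and the share was 34.8% in genes called higher and 35.7% in genes called lower.

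Class II genes and Itgax are also high in dendritic cells. Of the 8 dendritic cell markers, Ccr7, the receptor that guides cells to lymph nodes, was called higher, at 7.94, 8.27 and 3.73 FPKM at day 5 and 12.6 and 23 FPKM at day 28 (log2 fold change 1.43, SE 0.39, adjusted p = 0.04), and the summed level of the list was 8.24 to 13.4 FPKM at day 5 and 20.4 and 30.8 FPKM at day 28. Ccr7 lost its call with any of the 5 libraries left out. The log2 fold change was positive in 7 of the 8 markers and negative in 1, with a median of 0.74. The defining markers Flt3, Zbtb46, Xcr1 and Clec9a were under 1 FPKM in all 5 libraries and were not called. The part of dendritic cells in these values was not tested.

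Inflammatory mediators and the pathways that drive them fell in part. Of 27 cytokine and mediator genes tested, 8 were called lower and none higher (median -0.50, with 2, 2, 5, 4 and 6 called lower when 1 library was left out). Besides Saa3 and Csf3, Il1b was at 1104, 1205 and 1225 FPKM at day 5 and 783 and 728 FPKM at day 28. For Il1b, the log2 fold change was -0.63 with an SE of 0.13 and an adjusted p of 0.0129. Il1a fell by 1.11 and Il18 by 1.17 on the log2 scale. Ptges, the synthase of prostaglandin E, was at 33.3, 24 and 12 FPKM at day 5 and 4.6 and 3.2 FPKM at day 28. Ptges had a log2 fold change of -2.54 with an SE of 0.48 and an adjusted p of 0.00993. Il1b was still abundant at day 28, and Ptges was low. Thbs1, the secreted glycoprotein thrombospondin, fell from 337, 234 and 289.7 FPKM to 74.3 and 97 FPKM. Il10, an anti-inflammatory cytokine, was at 237, 164 and 111 FPKM at day 5 and 61.2 and 88.4 FPKM at day 28 and did not pass the test (log2 fold change -1.18, SE 0.45, adjusted p = 0.104), nor did Il6, Osm, Ptgs2 or Il1rn (adjusted p = 0.205, 0.336, 0.837 and 0.324).

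A list of NF-kB subunits, inhibitors and related genes such as Ikbke, Ikbkb, Traf1, Birc3 and Icam1 had 8 of 19 members called lower. None was called higher (median -0.74), and 18 of the 19 had a negative sign. With 1 library left out the counts called lower were 1, 6, 2, 3 and 7. Ikbke, a kinase upstream of interferon factors and NF-kB, was at 124, 119 and 96.9 FPKM at day 5 and 50.4 and 50.8 FPKM at day 28. For Ikbke, the log2 fold change was -1.15 with an SE of 0.15 and an adjusted p of 0.00253. Bcl3, a nuclear cofactor of NF-kB, was at 118, 117 and 90.4 FPKM at day 5 and 43.9 and 56 FPKM at day 28. Bcl3 had a log2 fold change of -1.11 with an SE of 0.25 and an adjusted p of 0.0202. Both genes were lower in each day 28 library by a similar amount. The subunits Rela, Relb and Nfkb2 fell by 0.83, 0.85 and 0.92 on the log2 scale, and Nfkb1 and Rel did not pass the test (adjusted p = 0.597 and 0.282). Of the inhibitors, Nfkbie fell by 0.94, and Nfkbia and Tnfaip3 were not called (adjusted p = 0.0512 and 0.328).

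Some of the receptors that sense microbes and antibodies were called lower. Of 20 genes of toll-like receptors and their adaptors 8 were called lower and none higher, all 20 had a negative sign, and the counts with 1 library left out were 3, 4, 3, 4 and 5. Myd88, the adaptor of most toll-like receptors, was at 99, 91.2 and 87.8 FPKM at day 5 and 45 and 44 FPKM at day 28. For Myd88, the log2 fold change was -1.05 with an SE of 0.13 and an adjusted p of 0.00183. Tlr2, the receptor for bacterial lipoproteins, was at 418, 377 and 327 FPKM at day 5 and 174 and 205 FPKM at day 28 (log2 fold change -0.97, SE 0.16, adjusted p = 0.00657), while the endosomal receptors Tlr7 and Tlr3 fell by less (both -0.65 on the log2 scale). Irak3, an inhibitor of the same pathway, fell with them (-1.03 ± 0.15). Of 9 Fc receptor genes tested, 5 were called lower, and 3 with any of the 5 libraries left out. The activating receptors Fcgr1 and Fcgr4, which bind IgG, were at 171, 160.3 and 154 FPKM at day 5 and 51.4 and 45 FPKM at day 28 (log2 fold change -1.73, SE 0.22, adjusted p = 0.0021) and 149, 109 and 111 FPKM at day 5 and 37.3 and 34 FPKM at day 28. Fcgr4 had a log2 fold change of -1.77 with an SE of 0.20 and an adjusted p of 0.00143. Fcgrt, which recycles IgG, and Fcer1g, the shared signalling chain, fell by 0.76 and 0.58. Fcgr3 and Fcgr2b, which encode the sorting marker CD16/32, were not called (adjusted p = 0.481 and 0.132).

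Complement genes followed the same direction, with 6 of 19 called lower (median -0.45) and 2 higher, and with 3, 4, 5, 5 and 5 called lower when 1 library was left out. The components Cfb, C3 and Cfp belong to the alternative pathway, and Cfb was at 273, 228 and 215 FPKM at day 5 and 51.9 and 42.2 FPKM at day 28. For Cfb, the log2 fold change was -2.33 with an SE of 0.31 and an adjusted p of 0.0026. C5ar1, the receptor for the anaphylatoxin C5a, was at 209.6, 226 and 227 FPKM at day 5 and 56.6 and 94.6 FPKM at day 28. C5ar1 had a log2 fold change of -1.53 with an SE of 0.21 and an adjusted p of 0.0029. Cfp, properdin, fell from 656, 569 and 608 FPKM to 232 and 226 FPKM, C3 from 149.8, 100.1 and 111 FPKM to 47.5 and 55.3 FPKM, and the receptor C3ar1 by 0.82 on the log2 scale. The C1q chains C1qa, C1qb and C1qc were abundant and did not pass the test (adjusted p = 0.268, 0.111 and 0.0954). The 2 members called higher were Itgax and Vsig4, a complement receptor that stayed under 3 FPKM.

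Genes of the TREM2 program rose in their majority. Of 21 members tested, 13 were called higher and 1 lower (median 0.83), and 10 or 11 were called higher with any of the 5 libraries left out. The rises called ranged from 0.38 for Trem2 itself to 4.77 for Itgax on the log2 scale. The summed level of the list did not rise, at 29839 to 35016 FPKM at day 5 and 27292 and 29832 FPKM at day 28. Atp6v0d2 (chr4:19876841-19922605), a subunit of the proton pump that acidifies lysosomes, was at 7.47, 12.1 and 6.66 FPKM at day 5 and 118 and 101 FPKM at day 28. For Atp6v0d2, the log2 fold change was 3.67 with an SE of 0.36 and an adjusted p of 0.000809. Lpl (chr8:68880491-68907448), the lipoprotein lipase, was at 52.6, 130.2 and 91.4 FPKM at day 5 and 687 and 547 FPKM at day 28. Lpl had a log2 fold change of 2.77 with an SE of 0.42 and an adjusted p of 0.00446. The day 5 values of Lpl varied widely, and both day 28 values were far above the highest of them. Cd9, a tetraspanin, rose from 124, 166 and 122 FPKM to 647 and 489 FPKM, and Gpnmb, a glycoprotein of lipid-laden macrophages, from 149, 153 and 143 FPKM to 387 and 453 FPKM. Clec7a, the beta-glucan receptor Dectin-1, was at 43.9, 56.6 and 49 FPKM at day 5 and 265 and 174 FPKM at day 28. For Clec7a, the log2 fold change was 2.15 with an SE of 0.19 and an adjusted p of 0.000641. Trem2 was at 394, 399 and 406 FPKM at day 5 and 493 and 537 FPKM at day 28 (log2 fold change 0.38, SE 0.11, adjusted p = 0.0429), a small but even difference, and its adaptor Tyrobp was not called. Tyrobp had a log2 fold change of -0.16 with an SE of 0.11 and an adjusted p of 0.39. The member called lower was Fabp5, a fatty acid carrier. For Fabp5, the log2 fold change was -0.59 with an SE of 0.17 and an adjusted p of 0.0445. Apoe, the most abundant member, was at 19416, 14885 and 14946 FPKM at day 5 and 8252 and 12450 FPKM at day 28 and did not pass the test (log2 fold change -0.65, SE 0.24, adjusted p = 0.0932), nor did the abundant cathepsin genes Ctsb, Ctsd and Ctsl (adjusted p = 0.053, 0.229 and 0.108).

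Lipid genes were called in both directions. Of 24 genes of cholesterol synthesis and uptake, 11 were called higher and none lower (median 0.55), but only 0, 3, 1, 2 and 2 were called when 1 library was left out. Sqle, squalene epoxidase, was at 1.98, 2.35 and 2.31 FPKM at day 5 and 5.45 and 6.46 FPKM at day 28. Sqle had a log2 fold change of 1.44 with an SE of 0.37 and an adjusted p of 0.0314. Fdps, which makes farnesyl diphosphate, was at 7.63, 8.9 and 8.08 FPKM at day 5 and 19.8 and 14.8 FPKM at day 28. For Fdps, the log2 fold change was 1.11 with an SE of 0.29 and an adjusted p of 0.0325. The called members were mostly of low abundance. Of 27 genes of lipid handling and cholesterol efflux, of which Apoe, Fabp5, Lipa and Lpl are also on the TREM2 list, 8 were called lower and 3 higher, with 4, 7, 6, 7 and 6 called lower when 1 library was left out. The efflux pumps Abca1 and Abcg1 were at 277, 257 and 248 FPKM at day 5 and 128 and 146 FPKM at day 28 (log2 fold change -0.91, SE 0.14, adjusted p = 0.00464) and 70.1, 72.3 and 73.2 FPKM at day 5 and 40.8 and 44.5 FPKM at day 28. Abcg1 had a log2 fold change of -0.74 with an SE of 0.11 and an adjusted p of 0.00464. Nr1h3, the oxysterol receptor LXR alpha that induces them, was at 39.6, 38.2 and 34.1 FPKM at day 5 and 19.8 and 21.3 FPKM at day 28. For Nr1h3, the log2 fold change was -0.85 with an SE of 0.15 and an adjusted p of 0.00731. Each of the 3 genes had narrow values within each day. Plin2, which coats lipid droplets, fell from 1049, 946 and 1187 FPKM to 530.1 and 579 FPKM, and Pltp, the phospholipid transfer protein, from 1588, 1544 and 1543 FPKM to 874 and 866 FPKM. Lipa, the lysosomal acid lipase that frees cholesterol from esters, rose from 211, 224 and 223 FPKM to 447 and 328 FPKM (adjusted p = 0.0171).

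Lysosomal proteases changed in both directions. Of 43 genes of lysosomal enzymes and membranes, 6 were called higher and 8 lower (median -0.19), with 4, 3, 3, 5 and 3 higher and 1, 2, 2, 3 and 2 lower when 1 library was left out. The share of this list called lower was 18.6%, against 7.51% of all genes tested and 19.5% of those of at least 100 FPKM. Ctsk (chr3:95499256-95509362), the collagen-cutting protease known from osteoclasts, was at 62.8, 50.9 and 55 FPKM at day 5 and 456 and 390.2 FPKM at day 28. Ctsk had a log2 fold change of 2.93 with an SE of 0.27 and an adjusted p of 0.000706. Ctsf rose by 1.64 ± 0.26 on the log2 scale from low values. Ctsh and Ctsc, aminopeptidases, fell by 0.89 and 0.88. Tfeb, a factor that switches on lysosomal genes, was at 15.5, 16.5 and 15.7 FPKM at day 5 and 23 and 30.8 FPKM at day 28. For Tfeb, the log2 fold change was 0.77 with an SE of 0.16 and an adjusted p of 0.0155.

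Matrix-degrading enzymes likewise exchanged members. Of 27 proteases and inhibitors 5 were called higher and 7 lower, with 3, 4, 5, 4 and 4 higher and 3, 5, 4, 4 and 6 lower when 1 library was left out. Mmp12 (chr9:7344381-7369499), the macrophage elastase, was at 18.7, 42.8 and 26.2 FPKM at day 5 and 633 and 431 FPKM at day 28. Mmp12 had a log2 fold change of 4.20 with an SE of 0.66 and an adjusted p of 0.00485. Mmp19 was at 109, 139 and 114 FPKM at day 5 and 389.5 and 357 FPKM at day 28. For Mmp19, the log2 fold change was 1.65 with an SE of 0.13 and an adjusted p of 0.000541. The 3 day 5 values of Mmp12 varied widely but stayed far below both day 28 values. In the other direction, Mmp9, a gelatinase, was at 46.8, 30.8 and 47.5 FPKM at day 5 and 12.3 and 13.4 FPKM at day 28 (log2 fold change -1.69, SE 0.22, adjusted p = 0.00215), Mmp8 and Mmp13, collagenases, fell by 2.58 and 1.98 on the log2 scale, and Mmp14, the membrane-bound protease, fell from 337, 289.8 and 244 FPKM to 158 and 179 FPKM. Serpinb2, the inhibitor of plasminogen activators, was at 139, 119 and 75.9 FPKM at day 5 and 24.5 and 28.8 FPKM at day 28. Serpinb2 had a log2 fold change of -2.06 with an SE of 0.53 and an adjusted p of 0.0323.

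The coagulation genes that macrophages carry were reordered in the same way. Of 18 tested 4 were called higher and 4 lower, with 2, 4, 4, 3 and 3 higher and 0, 1, 1, 1 and 2 lower when 1 library was left out. F7, coagulation factor VII, was at 32.1, 34.9 and 32.4 FPKM at day 5 and 131 and 123 FPKM at day 28. For F7, the log2 fold change was 1.95 with an SE of 0.18 and an adjusted p of 0.000716. F10, factor X, rose from 136, 102 and 92.3 FPKM to 204 and 181 FPKM. Procr, the receptor for the anticoagulant protein C, was at 5.04, 6.6 and 5.57 FPKM at day 5 and 25.1 and 20.2 FPKM at day 28. Procr had a log2 fold change of 2.00 with an SE of 0.26 and an adjusted p of 0.00228. F13a1, the transglutaminase that cross-links fibrin and a marker of macrophages, was at 178, 172 and 169 FPKM at day 5 and 58 and 80.7 FPKM at day 28. For F13a1, the log2 fold change was -1.30 with an SE of 0.30 and an adjusted p of 0.0209. Thbd, thrombomodulin, fell by 1.43 on the log2 scale.

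Bridging molecules and receptors for the uptake of dead cells were higher or not called. Of 23 tested 5 were called higher and none lower (2, 5, 4, 5 and 4 when 1 library was left out), and the median was -0.13. Mfge8 (chr7:79133768-79149060), which links phosphatidylserine on dying cells to integrins, was at 6.22, 7.59 and 5.67 FPKM at day 5 and 96 and 132 FPKM at day 28. Mfge8 had a log2 fold change of 4.15 with an SE of 0.36 and an adjusted p of 0.000541. Axl, a receptor tyrosine kinase of the same process, was at 25.9, 26.4 and 20.7 FPKM at day 5 and 60.2 and 67 FPKM at day 28. For Axl, the log2 fold change was 1.40 with an SE of 0.18 and an adjusted p of 0.00232. Pros1, a ligand of the receptor Mertk, and Anxa1 rose by 0.62 ± 0.11 and 0.96 ± 0.17 on the log2 scale. Mertk, which is related to Axl, was at 19.99, 26.4 and 30.3 FPKM at day 5 and 20.6 and 25.7 FPKM at day 28. It was not called (log2 fold change -0.13, SE 0.21, adjusted p = 0.708), nor was Gas6, its other ligand (adjusted p = 0.519).

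Among factors that act on nerve, vessels and other cells, 3 of 28 tested growth and trophic factors were called higher and 3 lower (2, 2, 3, 3 and 3 higher and 0, 4, 2, 1 and 1 lower when 1 library was left out). Nrg1, the neuregulin that controls Schwann cell growth and myelination, was at 24.6, 17.3 and 23.3 FPKM at day 5 and 3.71 and 5.41 FPKM at day 28 (log2 fold change -2.26, SE 0.42, adjusted p = 0.00941), with no overlap between the days. Igf1, insulin-like growth factor, was at 15.7, 16.7 and 12.8 FPKM at day 5 and 30.6 and 31.7 FPKM at day 28 (log2 fold change 1.07, SE 0.15, adjusted p = 0.0028), so that it rose where Nrg1 fell. Pdgfb rose by 0.64 ± 0.12 and Pdgfc fell by 0.93 on the log2 scale, and Tgfb1 was at 249, 244 and 223 FPKM at day 5 and 153 and 188 FPKM at day 28. Tgfb1 had a log2 fold change of -0.47 with an SE of 0.13 and an adjusted p of 0.0378. The trophic factor genes Bdnf, Gdnf and Ntf3 had at most 5 fragments in any of the 5 libraries and were not tested. The share of growth and trophic factors called was 10.7% in each direction, near the 7.74% higher and 7.51% lower of all genes tested. In the TGF-beta pathway 5 of 24 genes were called higher and 2 lower (2, 4, 4, 4 and 5 higher and 0, 2, 0, 0 and 0 lower when 1 library was left out). Ltbp3, which stores latent TGF-beta in the matrix, was at 5.15, 4.78 and 3.79 FPKM at day 5 and 19.3 and 21.1 FPKM at day 28 (log2 fold change 2.15, SE 0.25, adjusted p = 0.00155), and the receptor Tgfbr1 was at 24.9, 21.1 and 18.8 FPKM at day 5 and 37.6 and 33.2 FPKM at day 28. For Tgfbr1, the log2 fold change was 0.73 with an SE of 0.14 and an adjusted p of 0.00991.

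Among receptors for growth factors and cytokines 3 of 35 were called higher and 6 lower (0, 2, 2, 2 and 2 higher and 1, 4, 2, 2 and 2 lower when 1 library was left out). These were 8.57% higher and 17.1% lower, against 7.74% and 7.51% of all genes tested. Kdr, the VEGF receptor of endothelial cells, was at 13, 8.5 and 11.3 FPKM at day 5 and 1.39 and 1.27 FPKM at day 28. Kdr had a log2 fold change of -3.02 with an SE of 0.42 and an adjusted p of 0.0029. Csf3r, the receptor for G-CSF, was at 72.7, 66.6 and 67.1 FPKM at day 5 and 30.2 and 34 FPKM at day 28. For Csf3r, the log2 fold change was -1.09 with an SE of 0.18 and an adjusted p of 0.00581. Kdr and Pecam1, which encodes CD31, at 11.4, 4.91 and 8.04 FPKM at day 5 and 3.01 and 1.52 FPKM at day 28, were the endothelial markers called lower, and the summed level of the endothelial list was 16.4 to 29.9 FPKM at day 5 and 5.96 and 12.1 FPKM at day 28, while Cdh5 and Cldn5 were under 2 FPKM in all 5 libraries. The part of endothelial cells in these values was not tested.

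Chemokines and their receptors were mixed. Of 12 CC chemokines 1 was called higher and 3 lower, of 14 CXC chemokines 2 were called higher and 3 lower, and of 11 receptors 3 were called higher and 1 lower. When 1 library was left out, 1, 0, 1, 1 and 1 CC chemokines and 2, 2, 3, 3 and 3 CXC chemokines were called lower, and 1, 2, 1, 1 and 1 receptors higher. Ccl24, which attracts eosinophils, was at 33, 43.8 and 42.2 FPKM at day 5 and 112 and 114 FPKM at day 28. Ccl24 had a log2 fold change of 1.52 with an SE of 0.14 and an adjusted p of 0.000706. Cxcl14 was at 6.08, 8.18 and 6.76 FPKM at day 5 and 59.2 and 51.8 FPKM at day 28. For Cxcl14, the log2 fold change was 3.00 with an SE of 0.38 and an adjusted p of 0.00213. Cx3cr1 (chr9:119901616-120069879), the fractalkine receptor of patrolling monocytes and resident macrophages, was at 4.47, 7.15 and 3.56 FPKM at day 5 and 44.1 and 36.3 FPKM at day 28 (log2 fold change 3.01, SE 0.32, adjusted p = 0.00107), with both day 28 values far above the highest day 5 value. Cxcr7, a scavenging receptor, was at 9.29, 10.5 and 13.8 FPKM at day 5 and 2.73 and 2.8 FPKM at day 28. Cxcr7 had a log2 fold change of -1.99 with an SE of 0.33 and an adjusted p of 0.00555.

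Markers of monocytes and of resident macrophages were called in both directions. Of 24 monocyte markers 3 were called higher and 7 lower, and of 29 resident-type markers 4 were called higher and 7 lower, with medians of -0.11 and -0.35. The monocyte list summed to 3705 to 4014.5 FPKM at day 5 and 4324 and 5273 FPKM at day 28. The resident-type list summed to 6976 to 7790 FPKM and 4583 and 5643 FPKM. Called higher were, among others, the monocyte markers Fn1 and F10 (log2 fold changes 1.38 and 0.81). Among resident-type markers Cx3cr1 and Igf1 were called higher (3.01 and 1.07). Ly6c2 (chr15:75108158-75111970), which marks inflammatory monocytes, was at 107, 72.8 and 57.1 FPKM at day 5 and 12.2 and 8.31 FPKM at day 28 (log2 fold change -2.90, SE 0.66, adjusted p = 0.0206), and its near-identical neighbour Ly6c1 fell with it (adjusted p = 0.0286). Reads shared by these 2 genes make the split between them uncertain. Siglec1, a sialic acid receptor of tissue macrophages, was at 71, 86.3 and 62 FPKM at day 5 and 31.1 and 33.2 FPKM at day 28. For Siglec1, the log2 fold change was -1.17 with an SE of 0.30 and an adjusted p of 0.0294. Without 1 library, 3, 3, 4, 5 and 5 monocyte markers and 1, 2, 1, 0 and 0 resident-type markers were called lower.

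The genes linked to alternative activation by IL4 were divided, with 9 of 28 tested called higher and 5 lower (5, 6, 5, 7 and 5 higher and 1, 1, 2, 1 and 2 lower when 1 library was left out). Irf4, the factor that carries part of the IL4 response, was at 3.2, 3.66 and 3.07 FPKM at day 5 and 12.6 and 12.6 FPKM at day 28. Irf4 had a log2 fold change of 1.94 with an SE of 0.21 and an adjusted p of 0.00129. Mgl2, a lectin for galactose, was at 1.89, 1.3 and 2.5 FPKM at day 5 and 8.28 and 8.24 FPKM at day 28. For Mgl2, the log2 fold change was 2.13 with an SE of 0.26 and an adjusted p of 0.00191. Both factor and lectin were nearly equal in the 2 day 28 libraries. Mrc1, the mannose receptor, was at 266, 277 and 273 FPKM at day 5 and 149.9 and 176 FPKM at day 28 and Msr1, a scavenger receptor, at 227, 265 and 224 FPKM at day 5 and 154 and 146 FPKM at day 28, and both were called lower (adjusted p = 0.0347 and 0.0192). Chi3l3, Stat6 and Pparg were not called (adjusted p = 0.755, 0.748 and 0.397). Among 24 lineage transcription factors, 5 were called higher and 3 lower (2, 3, 3, 3 and 3 higher and 1, 4, 3, 3 and 3 lower when 1 library was left out). Bhlhe41 rose by 1.09 ± 0.19 on the log2 scale, and Id3 and Tfec fell by 1.42 and 1.10.

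Part of the genes of sugar metabolism and of the hypoxia response fell. Of 23 genes of glycolysis and glucose uptake 9 were called lower and 1 higher (median -0.38), with 2, 3, 3, 3 and 3 called lower when 1 library was left out. Slc16a3, the lactate exporter, was at 257, 233 and 259 FPKM at day 5 and 111 and 99.99 FPKM at day 28. Slc16a3 had a log2 fold change of -1.23 with an SE of 0.13 and an adjusted p of 0.00101. Slc2a1, the glucose carrier GLUT1, was at 221, 207 and 223 FPKM at day 5 and 164 and 140.4 FPKM at day 28. For Slc2a1, the log2 fold change was -0.50 with an SE of 0.12 and an adjusted p of 0.0239. Of the enzymes, Tpi1, Pfkl, Pgk1 and Eno1 fell by 0.75, 0.72, 0.53 and 0.48 on the log2 scale, while Gapdh and Pkm did not pass the test (adjusted p = 0.0552 and 0.0592). Of 19 hypoxia genes 6 were called lower and 1 higher, with 4, 2, 3, 4 and 3 lower when 1 library was left out. Bnip3, which removes mitochondria under low oxygen, was at 89.1, 76.9 and 86.5 FPKM at day 5 and 42.9 and 29 FPKM at day 28. Bnip3 had a log2 fold change of -1.21 with an SE of 0.17 and an adjusted p of 0.00302. Egln3, an oxygen sensor that hypoxia induces, was at 19.1, 18.5 and 23.7 FPKM at day 5 and 9.45 and 5.56 FPKM at day 28. For Egln3, the log2 fold change was -1.42 with an SE of 0.28 and an adjusted p of 0.0118. Bhlhe40, the member called higher, was at 115, 131 and 119 FPKM at day 5 and 231 and 209 FPKM at day 28. Bhlhe40 had a log2 fold change of 0.87 with an SE of 0.16 and an adjusted p of 0.00955.

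Of 72 genes of the respiratory chain, which drives ATP synthesis in mitochondria, 1 was called higher and none lower (median 0.10), of 77 ribosomal protein genes 5 (6.49%, against 7.74% of all genes tested) were called higher and none lower (median 0.19, with a positive sign in 71), and of 31 proteasome subunits none was called (median -0.09). The ribosomal count was 0, 7, 1, 1 and 1 and the respiratory chain count 0, 4, 0, 0 and 0 when 1 library was left out. Rpl10a was at 348, 351 and 358 FPKM at day 5 and 503 and 514 FPKM at day 28. For Rpl10a, the log2 fold change was 0.54 with an SE of 0.10 and an adjusted p of 0.00983. By DESeq2, 12 ribosomal protein genes were called higher and no proteasome subunit was called.

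Of 51 cell cycle genes 8 were called higher and 1 lower (median 0.49), with 5, 0, 1, 1 and 4 higher when 1 library was left out. Top2a, which untangles replicated DNA, was at 3.04, 3.2 and 4.09 FPKM at day 5 and 4.54 and 7.07 FPKM at day 28. Top2a had a log2 fold change of 0.76 with an SE of 0.20 and an adjusted p of 0.0348. Ccnb2, a mitotic cyclin, was at 2.63, 3.33 and 2.93 FPKM at day 5 and 4.69 and 6.94 FPKM at day 28. For Ccnb2, the log2 fold change was 0.98 with an SE of 0.24 and an adjusted p of 0.0269. The called members act mostly in mitosis, and the replication genes Mcm2, Mcm3, Mcm4 and Pcna were not called (adjusted p = 0.603, 0.749, 0.913 and 0.706). Mki67, the common marker of proliferation, was at 18.4, 16.2 and 12.4 FPKM at day 5 and 8.44 and 14.2 FPKM at day 28 and was not called either. Mki67 had a log2 fold change of -0.46 with an SE of 0.27 and an adjusted p of 0.278. Cdt1, which licenses replication origins, was the member called lower, at 44.6, 32.7 and 35.8 FPKM at day 5 and 15.3 and 21.5 FPKM at day 28. For Cdt1, the log2 fold change was -1.03 with an SE of 0.22 and an adjusted p of 0.0178. The letters TTTGAA, the core of the cell cycle homology region, were in 46.7% of the 45 promoter windows of the list and in 12.2% of all windows, and in 5 of the 6 windows of members called higher.

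The antioxidant targets of NRF2 had 5 of 19 members called higher and 1 lower (2, 4, 2, 3 and 2 higher when 1 library was left out). Slc7a11, the cystine carrier, was at 10.9, 16.9 and 10.8 FPKM at day 5 and 46.6 and 35.8 FPKM at day 28. Slc7a11 had a log2 fold change of 1.70 with an SE of 0.21 and an adjusted p of 0.00191. Srxn1, sulfiredoxin, was at 66.6, 61 and 64.7 FPKM at day 5 and 146 and 132 FPKM at day 28. For Srxn1, the log2 fold change was 1.13 with an SE of 0.12 and an adjusted p of 0.00101. Hmox1, heme oxygenase, went the other way, from 1029, 1263 and 883 FPKM to 549.5 and 552 FPKM (adjusted p = 0.0204). Of the iron and heme genes, which include Hmox1, 18.75% were called lower, against 19.5% of all genes of at least 100 FPKM. Tfrc, the transferrin receptor that imports iron, was at 33.9, 31.3 and 29.9 FPKM at day 5 and 15.2 and 16.7 FPKM at day 28 (log2 fold change -0.98, SE 0.17, adjusted p = 0.00673), 1 of 3 iron and heme genes called lower among 16 (0, 1, 1, 1 and 2 when 1 library was left out). Of 14 genes of the NADPH oxidase and superoxide defence 3 were called higher and 1 lower (2, 1, 1, 1 and 1 higher and 0, 0, 0, 0 and 2 lower when 1 library was left out). Hvcn1, the proton channel that supports the oxidase, was at 36.6, 38.8 and 29.9 FPKM at day 5 and 126 and 112 FPKM at day 28. Hvcn1 had a log2 fold change of 1.76 with an SE of 0.24 and an adjusted p of 0.00296. Sod2, the mitochondrial dismutase, was at 158, 126 and 103 FPKM at day 5 and 70.5 and 64 FPKM at day 28. For Sod2, the log2 fold change was -0.92 with an SE of 0.22 and an adjusted p of 0.0226.

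Of the remaining lists none had more than 5 members called in a direction. Over all genes tested 7.74% were called higher and 7.51% lower. The immediate early genes stood near these shares, at 9.68% in each direction. Actin and migration genes were at 6.45% higher and 12.9% lower, and integrins at 5.26% and 21.1%. Of the scavenger receptors 18.75% were called lower, against 19.5% of all genes of at least 100 FPKM. Among 31 immediate early genes 3 were called higher and 3 lower, with Myc, a growth factor response gene, at 9.55, 8.4 and 7.79 FPKM at day 5 and 11.6 and 20.2 FPKM at day 28 and Ier3 at 1381, 1199 and 1159 FPKM at day 5 and 583 and 674 FPKM at day 28 (log2 fold changes 0.90 ± 0.21 and -0.98 ± 0.16). Of 24 genes of the unfolded protein and amino acid stress response 3 were called higher, among them Mthfd2, a mitochondrial folate enzyme, at 5.84, 5.98 and 5.74 FPKM at day 5 and 14.8 and 12.3 FPKM at day 28. Mthfd2 had a log2 fold change of 1.23 with an SE of 0.18 and an adjusted p of 0.00353. The C-type lectins had 4 of 23 higher and 3 lower, the scavenger receptors 3 of 16 lower, and the arginine and polyamine genes 3 of 16 higher and 4 lower, with Slc7a2, an arginine carrier, at 4.67, 5.01 and 2.1 FPKM at day 5 and 15.8 and 13 FPKM at day 28. For Slc7a2, the log2 fold change was 1.88 with an SE of 0.29 and an adjusted p of 0.00457. The prostaglandin and leukotriene genes had 3 of 18 higher and 3 lower, with Alox5, the enzyme that starts leukotriene synthesis, at 8.85, 11.3 and 11.6 FPKM at day 5 and 20.3 and 22 FPKM at day 28. Alox5 had a log2 fold change of 1.01 with an SE of 0.15 and an adjusted p of 0.00418. The costimulation and checkpoint ligands had 3 of 15 higher and 2 lower, with Cd276 at 1.27, 1.81 and 0.963 FPKM at day 5 and 10.6 and 6.6 FPKM at day 28 and Cd47, the signal that blocks phagocytosis, at 164, 175 and 139 FPKM at day 5 and 91.1 and 93.5 FPKM at day 28 (adjusted p = 0.00462 and 0.00963). Integrins had 1 of 19 higher and 4 lower, actin and migration genes 2 of 31 higher and 4 lower, metallothionein and zinc genes 3 of 11 higher and 1 lower, and collagens with other fibroblast matrix genes 3 of 22 higher and 1 lower. When 1 library was left out, the counts called higher were 2, 0, 2, 0 and 1 for immediate early genes, 2, 1, 2, 2 and 2 for the stress response, 1, 2, 1, 1 and 1 for arginine genes, 1, 2, 2, 3 and 2 for prostaglandin genes, 0, 1, 1, 2 and 1 for checkpoint ligands, 1, 1, 1, 2 and 1 for metallothionein and zinc genes and 1, 0, 4, 1 and 1 for collagens. The counts called lower were 0, 3, 2, 2 and 2 for immediate early genes, 1, 0, 0, 1 and 1 for lectins, 1, 1, 2, 1 and 2 for scavenger receptors, 1, 1, 2, 3 and 3 for arginine genes, 1, 3, 3, 4 and 3 for integrins and 0, 2, 0, 0 and 2 for actin genes.

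**Figure D5:**
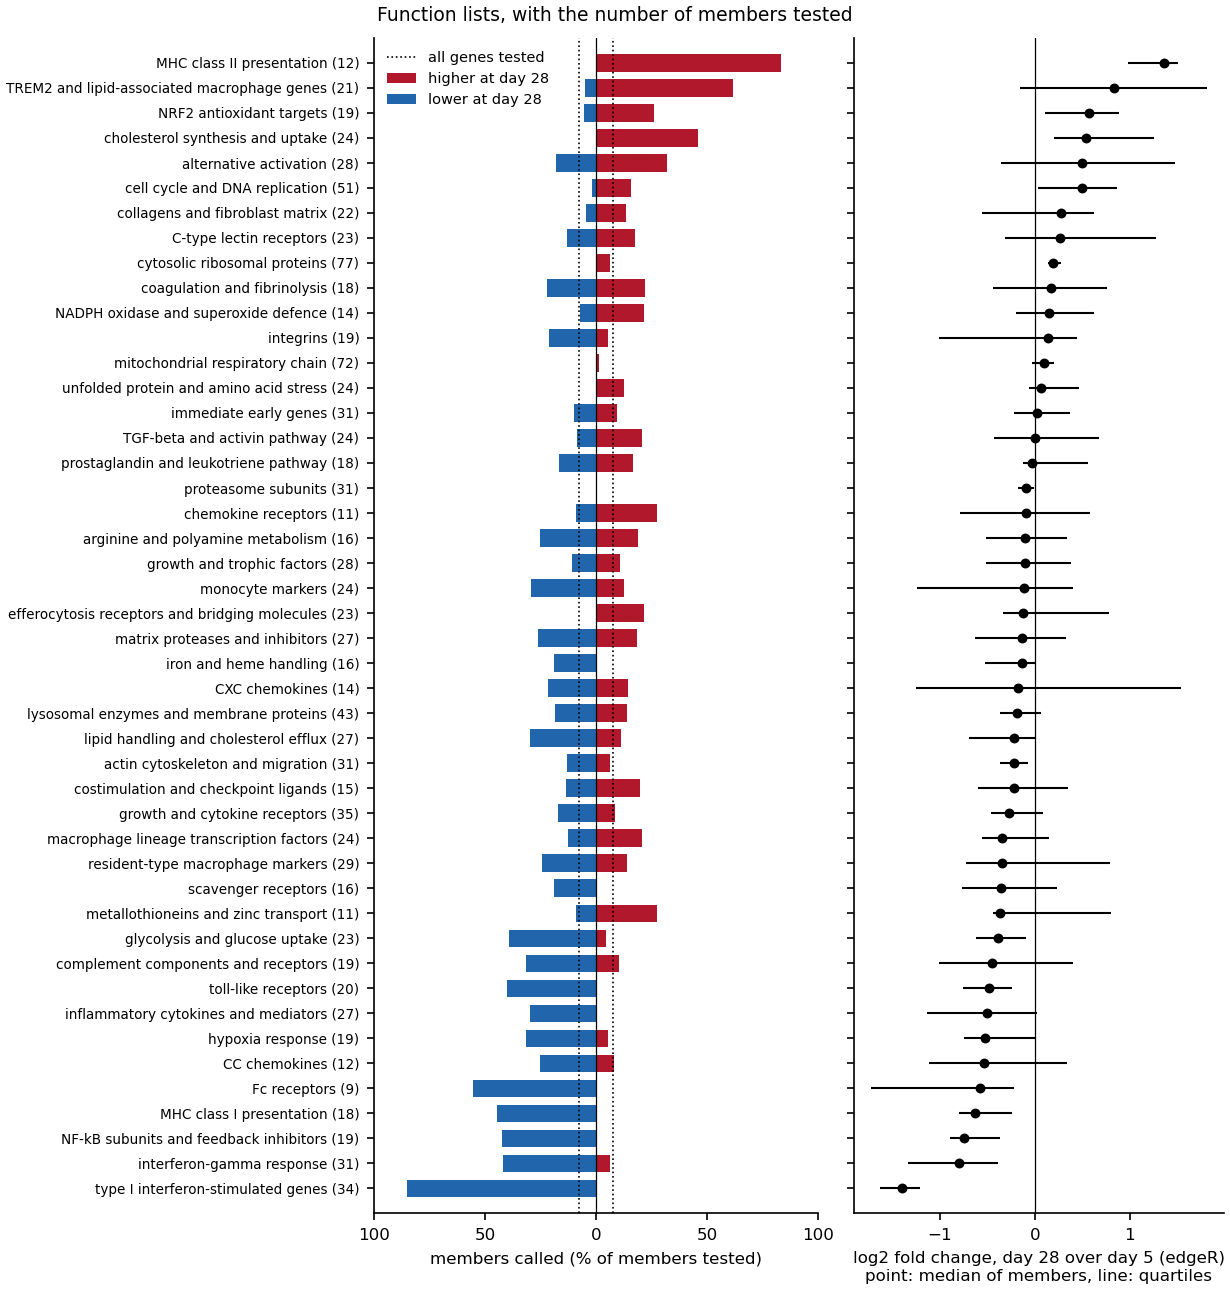
The left panel gives for each of the 46 function lists the percentage of tested members called higher (red, to the right) or lower (blue, to the left), with dotted lines at the 7.74% and 7.51% of all genes tested, and the right panel the median log2 fold change (point) with its quartiles (line). The type I interferon list stands at the bottom with a median of -1.40 and the MHC class II list at the top with 1.37.

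Markers of other cell types were measured in every library. Red cell genes summed to 92.8 to 128 FPKM at day 5 and 9.65 and 25.7 FPKM at day 28, with the globin gene Beta-s at 57.1, 78.8 and 59.9 FPKM at day 5 and 5.79 and 13.2 FPKM at day 28 (log2 fold change -2.83, SE 0.80, adjusted p = 0.0428) and Alas2, the starting enzyme of heme synthesis in red cells, called lower as well (adjusted p = 0.0443). These 2 calls were lost without day 28 replicate 1 and without each day 5 library, and Hba-a1 was not called (adjusted p = 0.0966). The platelet list summed to 1481 to 2122 FPKM at day 5 and 267 and 343 FPKM at day 28, almost all of it from Pf4 (chr5:90772435-90773383), a chemokine that macrophages can also express, at 1924, 1456 and 2067 FPKM at day 5 and 332 and 257 FPKM at day 28. For Pf4, the log2 fold change was -2.61 with an SE of 0.21 and an adjusted p of 0.000541. The platelet receptor genes Itga2b, Gp1ba, Gp9, Gp1bb and Gp6 were at most at 1.02 FPKM in any of the 5 libraries. Ppbp, another platelet chemokine, was at 31.2, 24.4 and 53.9 FPKM at day 5 and 9.83 and 7.39 FPKM at day 28 and was called lower (adjusted p = 0.0119). Neutrophil markers summed to 333 to 356 FPKM at day 5 and 153 and 293 FPKM at day 28, with Csf3r the member called lower and Elane without a fragment. Schwann cell markers summed to 247 to 298 FPKM and 159 and 162 FPKM, nearly all from Pmp22 (log2 fold change -0.92, SE 0.24, adjusted p = 0.0314), while Sox10, Ngfr, Gfap and Cdh19 were at or under 3 fragments and Mbp, the myelin basic protein gene, was at 10.3, 11.4 and 11.4 FPKM at day 5 and 19.5 and 17.2 FPKM at day 28. Mbp had a log2 fold change of 0.75 with an SE of 0.19 and an adjusted p of 0.0296. Fibroblast markers summed to 29.7 to 76.9 FPKM and 41.3 and 62.1 FPKM, with Postn called higher. The eosinophil list summed to 1.79 to 2.23 FPKM at day 5 and 3.48 and 3.6 FPKM at day 28, and Siglec5, which encodes the sorting marker Siglec F, was called higher, at 0.551, 0.507 and 0.413 FPKM at day 5 and 1.57 and 1.91 FPKM at day 28. For Siglec5, the log2 fold change was 1.85 with an SE of 0.36 and an adjusted p of 0.0105. That call was lost without either day 28 library. Of the B cell list, Cd22 was called higher, at 11.5, 10.4 and 10.2 FPKM at day 5 and 15.1 and 20.3 FPKM at day 28 (adjusted p = 0.018), the sums were 16.7 to 20.8 and 20.2 and 24.8 FPKM, and the call was lost without day 28 replicate 2, day 5 replicate 2 or day 5 replicate 3. Mural cell markers summed to 4.82 to 7.65 and 7.33 and 8.71 FPKM, with Cspg4 called higher at 0.371, 0.309 and 0.25 FPKM at day 5 and 1.75 and 1.97 FPKM at day 28 (adjusted p = 0.000541). The T and NK cell, mast cell and basophil, skeletal muscle and adipocyte lists summed to under 2 FPKM in every library, with no member called. The part of these cells in the differences above was not tested.

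The day 14 libraries bore on the calls only through the gene filter, the normalization and the shared estimate of the spread. They lay between the days for most of the called genes. On the log2 scale, with the day 5 mean set to 0 and the day 28 mean to 1, the median position of the 995 genes called higher was 0.449 in day 14 replicate 1 and 0.781 in day 14 replicate 2, and that of the 965 genes called lower was 0.366 and 0.773. The day 14 mean lay between the days in 841 of the genes called higher and 822 of those called lower. The 2 libraries of day 14 differed from each other in these medians. Oas3, for example, was at 48.9 and 18.4 FPKM at day 14, Itgax at 34.1 and 170 FPKM, and Ciita at 7.56 and 6.43 FPKM, where both libraries were already near day 28.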

How the data were processed

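Polyadenylated RNA of sorted macrophages was sequenced, and 3 day 5, 2 day 14 and 2 day 28 libraries were analysed. Per the submitters' processing notes and the study's methods, reads were trimmed with cutadapt 1.8, aligned to mm10 with TopHat2 2.0.13 and quantified with Cuffdiff 2.2.1. The authors deposited an estimated count of fragments per gene and library, FPKM values normalized for length and depth, and fragment counts scaled between libraries, a signal that served only to derive library factors for 1 alternative. Of the estimated counts, 1.01% were not whole, and all were rounded. Of 23361 genes, 12858 passed edgeR's filter on low counts by day. The 8 values that Cuffdiff marked as failed were in 4 genes.

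All 7 libraries were fitted with edgeR 4.0.16 (R 4.3.3, TMM, quasi-likelihood F test), with day 28 minus day 5 as the contrast and no covariate. The SE was the log2 fold change over the square root of F. On simulated counts for 12615 genes of this comparison, 62 of 100 genes changed 2-fold and 88 of 99 changed 4-fold were recovered. Beside these 62 and 88 stood 18 false calls. Only genes of these 2 kinds were changed, at day 28 alone. That is a far smaller share than the 15.2% called in the data, so these rates do not carry over to it. DESeq2 1.42.0 and limma 3.58.1 on log2(FPKM + a pseudocount of 1 or 0.1), other normalizations, filters and thresholds, a replicate block, and leaving out each library were the alternatives. Tables and figures were made with Python 3.11.15, numpy 2.4.6, pandas 2.3.3 and matplotlib 3.10.9. Gene positions are from the GENCODE annotation of GRCm38.

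The 46 function lists, the cell type markers and the genes compared were chosen with earlier results of these data known. By rule, the genes picked were the 12 largest rises and falls among genes meeting the stricter criteria, the 2 largest called changes per list and direction at a mean of at least 5 FPKM, the 6 largest gains and losses in FPKM, and the genes of the sort. The text names only a part of them, and the closing counts of named genes cover all of them. Other list members that are named, and the promoters printed, were chosen after their values were seen. A promoter was printed only if it held the letters marked in it. Some items are not reported here by name, though list counts include them.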

Additional observations from a re-analysis of the deposited data

How the results depend on the processing

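With 2 day 28 libraries the number of calls depended strongly on each library. With 1 library left out, day 14 libraries included, between 276 and 1344 genes were called higher and between 176 and 1417 lower, and by the stricter criteria between 140 and 202 higher and between 109 and 279 lower. The lowest count in each direction over all calls, and the 109, came without day 28 replicate 1. An adjusted p under 0.01 left 318 higher and 279 lower, and 163 lower by the stricter criteria, while a minimum mean of 1 FPKM in place of 5 gave 408 higher. The replicate block over all libraries gave 355 higher and 380 lower, 735 in all. Of these, 722 were among the 1960 genes called without it, and 48 named genes were no longer called. On the day 5 and day 28 libraries alone, 2778 genes were called without a block and 2427 with it, the latter with 1 residual degree of freedom. The labels do not say whether same-numbered libraries share a sort day, and their deviations from the day means correlated at 0.0542 over 7613 genes. DESeq2 called 1163 higher and 1322 lower, and 1941 genes were shared with edgeR. Of the values of named genes under all alternatives, 2172 kept their side of the threshold, 387 were no longer called, 8 were newly called and 0 changed direction. The causes were not tested.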
